A study of Mus musculus with 28 samples.

Results

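Spp1, Mgp, Runx2, Sox9, Alpl, Enpp1, Bmp2, Comp, Fmod and Chad are 10 genes of tissue calcification and cartilage. They were found by gene name among the 45513 gene rows of a count table from mouse ventricular myocardium, where each name belongs to a single row. The table holds RNA sequencing counts of 28 male C57BL/6 mice, 1 library per mouse. All mice were on a diet with 1% hydroxyproline, which the body turns into oxalate, and 0.5% calcium. Chronic kidney disease (CKD) was induced at 6 weeks of age by a 2-stage 5/6 nephrectomy, and controls had sham surgery. On day 7 a single oral dose of the oxalate-degrading gut bacterium Oxalobacter formigenes (Oxf) or of culture medium (vehicle) was given. By surgery and gavage there were 10 sham-vehicle and 6 CKD-vehicle mice, and 5 sham-Oxf and 7 CKD-Oxf mice. None carries a transgene or a mutation, and no group had a standard diet, so each comparison is made on the oxalate-precursor diet. The age at which hearts were collected is not given in the sources used here beyond "adult". Groups of 10 were planned, and the further mice were not analysed here.

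Mineral forms in soft tissue where calcium and phosphate are not held in solution. Pyrophosphate blocks the growth of mineral: Enpp1 makes it outside the cell and Alpl, tissue-nonspecific alkaline phosphatase, breaks it down to phosphate. Matrix Gla protein (Mgp) and osteopontin (Spp1) are secreted inhibitors of calcification, and loss of Mgp calcifies arteries. Bmp2 is a signal that can turn mesenchymal cells towards bone or cartilage, Runx2 is the main transcription factor of bone cells and Sox9 that of cartilage cells. Comp, Fmod and Chad encode matrix proteins of cartilage and tendon that bind collagen. In the heart, cartilage-like matrix genes are known from valves and other fibrous parts, and vascular calcification is a common finding in advanced kidney disease.

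The start regions of 4 of the genes are shown because 2 of them, Chad and Enpp1, varied from mouse to mouse together with Runx2, because Spp1 is a textbook target of Runx2, and because Fmod varied with Sox9, while its relation to Runx2 did not pass. The 250 bases before each start come from the RefSeq promoter table (build GRCm38.p6), which held 6 of the 10 genes by symbol (Alpl, Chad, Enpp1, Fmod, Runx2 and Spp1). Mgp, Sox9, Bmp2 and Comp had no entry. Each sequence is on the strand of its gene. Chad lies at chr11:94564797-94565046 on the plus strand, Enpp1 at chr10:24712160-24712409 on the minus strand, Spp1 at chr5:104434861-104435110 on the plus strand and Fmod at chr1:134037004-134037253 on the plus strand. Capitals mark TATAAA in Chad and, in Enpp1 and Spp1, ACCACA, which is the RUNX core TGTGGT read on the other strand.
Chad: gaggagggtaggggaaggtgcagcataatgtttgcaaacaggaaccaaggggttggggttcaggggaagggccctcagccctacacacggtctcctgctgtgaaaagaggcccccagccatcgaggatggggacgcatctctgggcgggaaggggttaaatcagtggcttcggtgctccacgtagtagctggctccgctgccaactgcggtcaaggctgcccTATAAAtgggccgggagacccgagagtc
Enpp1: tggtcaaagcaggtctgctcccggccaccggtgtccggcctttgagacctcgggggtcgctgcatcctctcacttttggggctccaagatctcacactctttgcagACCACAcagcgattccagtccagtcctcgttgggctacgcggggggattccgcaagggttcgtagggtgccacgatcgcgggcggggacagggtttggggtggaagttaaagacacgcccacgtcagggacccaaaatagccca
Spp1: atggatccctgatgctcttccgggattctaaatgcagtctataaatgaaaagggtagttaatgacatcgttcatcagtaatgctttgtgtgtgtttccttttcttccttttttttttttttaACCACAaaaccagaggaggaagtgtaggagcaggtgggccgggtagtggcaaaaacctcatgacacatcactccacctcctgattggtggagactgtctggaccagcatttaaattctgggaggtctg
Fmod: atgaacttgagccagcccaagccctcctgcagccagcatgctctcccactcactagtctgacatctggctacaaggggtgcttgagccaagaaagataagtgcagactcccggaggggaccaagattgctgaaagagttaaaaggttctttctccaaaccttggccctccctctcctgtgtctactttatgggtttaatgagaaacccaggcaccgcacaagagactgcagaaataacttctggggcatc
On both strands 3 motifs were searched: the RUNX core TGTGGT, the SOX core ACAAT and the TATA box TATAAA, which share no overlapping occurrence in these windows. In Chad the TATA box begins 28 bases before the start, and neither the RUNX nor the SOX core is present. The RUNX core was found once in Enpp1, 144 bases before the start, and once in Spp1, 128 bases before it. Spp1 also has TATAAA 211 bases before its start, left in lower case above. In Fmod none of the motifs was found in this window. Spp1 has a second entry, at chr5:104435942-104436191, with all 250 bases in exons and none of the 3 motifs. Of the windows not printed, that of Runx2 holds 1 RUNX and 1 SOX core, and those of Alpl hold neither. By comparison, the RUNX core occurs in 14%, the SOX core in 27.7% and the TATA box in 12.4% of 32841 windows of the same length, so a match in a single window is common and is a description only.

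Libraries held 19.8 to 65.4 M counts (M, mega), with a median of 38.1 M. The library of sham-Oxf replicate 1 stood apart. It was the shallowest (19.8 M), its counts fell on 15879 genes where other libraries had 27128 to 33995, and Spp1, Runx2, Bmp2 and Chad had 0 counts in it. At that depth 0 counts allow up to 0.142 CPM (counts scaled to library size with the TMM factors of edgeR), taking 3 counts as the limit, for counting error only. Values without this library are given beside the results that it moved most. The share of counts on the 7SL RNA rows ranged from 1.83% to 21%, with medians of 10.1% and 14.05% in the sham and CKD mice given vehicle and of 2.7% and 7.73% in the sham and CKD mice given Oxf. A score of circadian clock genes also differed, with means of 2.31, 0.80, 4.01 and 3.41 in the same order. Cardiomyocyte markers were high in every library, with summed levels of 16600 to 41800 CPM. Cartilage markers were low or absent. Matn1 and Matn3 were at 0 in 23 and 24 of 28 libraries, Ucma in 11 and Col9a1 in 5, and Col2a1 never passed 0.364 CPM. Acan (median 0.814 CPM), Matn4 (0.505), Col9a2 (0.413) and Col11a1 (0.219) were at 0 in only 1 library each. Cnmd (median 0.71 CPM, highest 3.32) had counts in all of them. In these bulk samples, fewer cells of a type and less RNA per cell cannot be told apart.

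All 10 genes passed the filter on low counts in the table of 24273 genes tested, but their levels differed widely. Per kilobase of exon, Mgp was the highest at 56.9 ± 21.2 CPM per kb (SD, n = 28), and its lowest library (23) was above the highest library of every other gene. Alpl followed at 5.95 ± 1.2 CPM per kb, then Comp (3.92 ± 2.14) and Fmod (3.77 ± 1.95), whose ranges overlapped with that of Alpl. Sox9 (1.51 ± 0.596), Chad (1.27 ± 0.752), Bmp2 (0.791 ± 0.337) and Enpp1 (0.633 ± 0.127) formed an overlapping middle range. Runx2 (0.222 ± 0.102) and Spp1 (0.213 ± 0.179) were lowest and did not differ beyond their spread. The most abundant member was thus an inhibitor of calcification, and the bone transcription factor Runx2 was among the least abundant.

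**Figure D1:**
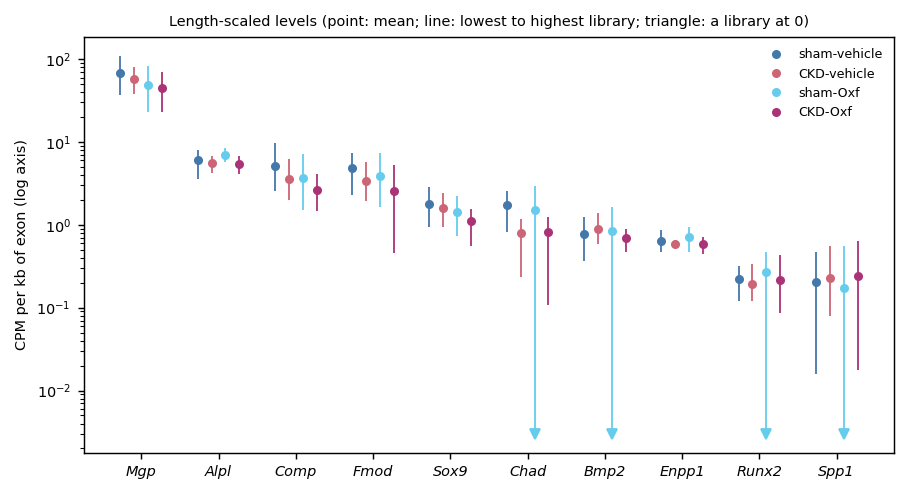
Level of each gene per kilobase of exon (CPM per kb, log axis) in the 4 groups. Points are group means and lines run from the lowest to the highest library, with a triangle where a library is at 0. Mgp stands above all others, and 4 genes reach 0 in the sham-Oxf group, all in replicate 1.

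The 2 enzymes of pyrophosphate balance had the smallest coefficients of variation of the 10 genes in sham-vehicle (20.2% for Alpl and 20.6% for Enpp1). Alpl (ENSMUSG00000028766, GRCm38 chromosome 4, 137741733 to 137796384) had a median of 24.9 CPM in sham-vehicle, with a lowest library of 14.4 and a highest of 32.0. In CKD-vehicle the lowest, median and highest were 17.1, 22.4 and 27.5 CPM, and in CKD-Oxf they were 16.5, 23.3 and 27.6 CPM. The 5 sham-Oxf mice had 30.8, 23.0, 24.5, 33.9 and 28.3 CPM. The groups overlapped, and 3 of the 5 sham-Oxf libraries lay above the highest CKD-Oxf library. Enpp1 (ENSMUSG00000037370, chromosome 10, 24637914 to 24712159), which works against Alpl, averaged 6.62 ± 1.37 and 6.01 ± 0.658 CPM in the sham and CKD mice given vehicle (SD, n = 10 and 6). With Oxf it averaged 7.38 ± 1.88 and 6.10 ± 1.03 CPM in sham and CKD mice (n = 5 and 7). Its coefficient of variation of 10.9% in CKD-vehicle was the smallest of any member in any group.

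Of the secreted inhibitors, Mgp was abundant and Spp1 barely detected. Mgp (ENSMUSG00000030218, chromosome 6, 136872435 to 136875823) had a lowest, median and highest level of 43.4, 77.6 and 130 CPM in sham-vehicle. They were 44.8, 66.8 and 96.4 CPM in CKD-vehicle and 27.7, 43.6 and 82.3 CPM in CKD-Oxf. The sham-Oxf mice had 48.8, 63.2, 97.7, 27.3 and 53.8 CPM. The ranges overlapped throughout, although 4 of 5 sham mice with Oxf were under the median of sham mice without it, as were 4 of 7 CKD mice with Oxf against CKD mice without it. Spp1 (ENSMUSG00000029304, chromosome 5, 104435118 to 104441050), which macrophages and bone cells secrete, had 0 to 42 counts per library. Its means in sham and CKD mice were 0.338 ± 0.220 and 0.377 ± 0.291 CPM with vehicle and 0.285 ± 0.376 and 0.391 ± 0.382 CPM with Oxf (SD), and the SD reached 132% of the mean in sham-Oxf. Without sham-Oxf replicate 1 the mean of that group was 0.356 ± 0.394 CPM (n = 4). At such counts the group values of Spp1 have wide errors. Of its 1648 exon bases, 309 (18.8%) are shared with Gm42793 on the same strand, so reads there could belong to either.

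The signal Bmp2 and the transcription factors were low to moderate in level. Bmp2 (ENSMUSG00000027358, chromosome 2, 133552159 to 133562885) averaged 2.75 ± 1.03 and 3.15 ± 1.27 CPM in the sham and CKD mice given vehicle and 2.98 ± 2.12 and 2.5 ± 0.546 CPM in those given Oxf (SD, n = 10, 6, 5 and 7). Without sham-Oxf replicate 1, which had 0 counts, the sham-Oxf mean was 3.73 ± 1.5 CPM (n = 4). Runx2 (ENSMUSG00000039153, chromosome 17, 44495987 to 44814797) averaged 1.99 ± 0.645, 1.69 ± 0.654, 2.35 ± 1.53 and 1.88 ± 0.962 CPM in the same order, and 2.94 ± 0.903 CPM in sham-Oxf without replicate 1. For Runx2, 519 of 8837 exon bases (5.87%) are shared with the antisense gene Runx2os1, and the use of strand in counting is not given in the sources used here.

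Sox9 (ENSMUSG00000000567, chromosome 11, 112782224 to 112787760) was the highest of these regulators per kilobase. Its lowest, median and highest levels were 3.94, 7.14 and 12.0 CPM in sham-vehicle, 3.94, 5.97 and 9.98 CPM in CKD-vehicle and 2.32, 4.60 and 6.51 CPM in CKD-Oxf. The sham-Oxf mice had 3.04, 7.18, 9.16, 5.54 and 4.92 CPM. CKD-Oxf thus had the lowest values, with 6 of 7 libraries below the CKD-vehicle median, but its range overlapped with that of each other group.

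Among the cartilage and tendon matrix genes, Comp and Fmod varied widely within every group. Comp (ENSMUSG00000031849, chromosome 8, 70373558 to 70382066), a collagen-binding glycoprotein, averaged 15.3 ± 7.16 and 10.7 ± 5.28 CPM in the sham and CKD mice given vehicle and 10.9 ± 6.65 and 7.75 ± 3.18 CPM in those given Oxf (SD, n = 10, 6, 5 and 7). Fmod (fibromodulin, ENSMUSG00000041559, chromosome 1, 134037254 to 134048277), a small proteoglycan that shapes collagen fibrils, averaged 15.9 ± 6.55, 11.2 ± 5.63, 12.8 ± 7.15 and 8.54 ± 4.82 CPM in the same order. Both had their highest mean in sham-vehicle and their lowest in CKD-Oxf, and both had an SD of over 40% of the mean in each group.

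Chad (chondroadherin, ENSMUSG00000039084, chromosome 11, 94565047 to 94569127), a cell-binding protein of cartilage matrix, had the largest difference by surgery of the 10 genes. Its lowest, median and highest levels were 1.37, 2.89 and 4.33 CPM in sham-vehicle and 0.396, 1.43 and 1.99 CPM in CKD-vehicle. In CKD-Oxf they were 0.183, 1.55 and 2.09 CPM. The sham-Oxf mice had 0, 4.91, 2.6, 2.19 and 3.15 CPM. Each of the 6 CKD-vehicle mice lay below the sham-vehicle median, with an overlap between 1.37 and 1.99 CPM. With Oxf, the 4 sham mice other than replicate 1 all lay above the highest CKD mouse. Chad lies inside Acsf2, a gene on the other strand, and no Acsf2 exon falls within the Chad locus. Acsf2 itself averaged 19.8, 18.8, 21.7 and 19.7 CPM in the 4 groups and had a log2 fold change of -0.11 ± 0.089 (SE) in CKD averaged over gavage (edgeR p = 0.237).

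**Figure D2:**
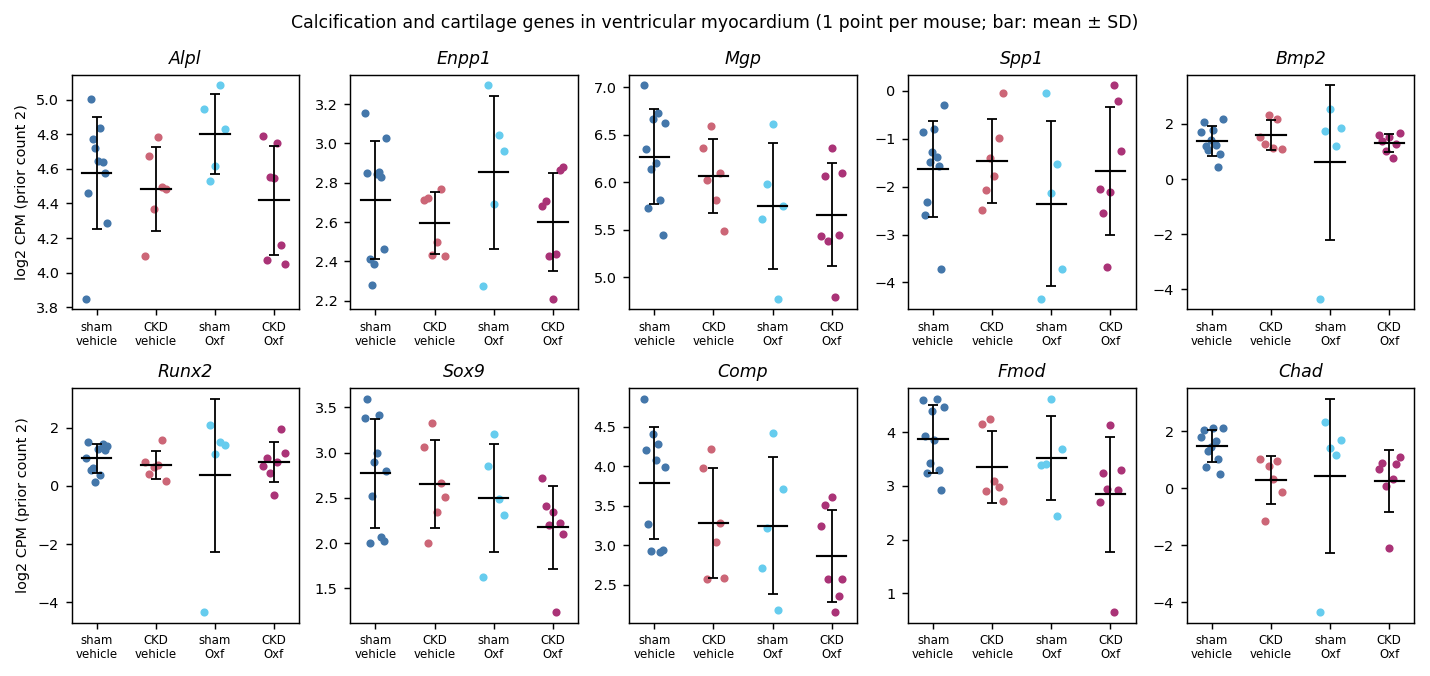
Level of each gene in every mouse (log2 CPM with a prior count of 2), by group, with the mean and SD as bars. Chad averages lower in both CKD groups (1.34 and 1.37 CPM) than in sham-vehicle (2.94 CPM), with overlap. Sham-Oxf replicate 1 is at the bottom for Spp1, Runx2, Bmp2 and Chad because it had 0 counts.

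The group comparisons were made in a single edgeR quasi-likelihood fit of all 28 libraries, with Benjamini-Hochberg adjustment over the 24273 genes. What CKD does in mice given vehicle was read from CKD-vehicle against sham-vehicle. None of the 10 genes passed an adjusted p of 0.05, a threshold that 0.00824% of all genes passed in this comparison. At an unadjusted p under 0.05 there was 1 member, Chad, against 4.46% of all genes (2.09% higher, 2.37% lower), and 8 of the 10 had a negative log2 fold change (median -0.20, against -0.03 over all genes tested). The value for Chad was -1.14 ± 0.50 (SE; 95% interval -2.15 to -0.12; edgeR p = 0.0299, adjusted p = 0.955). The unadjusted edgeR p of Chad was above 0.05 without CKD-vehicle replicate 2 (p = 0.0727) or without replicate 6 (p = 0.0635), with similar log2 fold changes of -0.98 and -1.03. It was also above 0.05 with the clock score as a covariate (-1.10, edgeR p = 0.0678). Without CKD-vehicle replicate 3 there were 2 members under 0.05. Several members varied together between mice. Their signs, here and in the comparisons that follow, are therefore not independent observations. The share of all genes with each sign is not given, only the median.

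The surgery effect in mice given Oxf, CKD-Oxf against sham-Oxf, gave a similar set of signs. Again no member passed the adjusted threshold, as was the case for 0% of all genes. Here Alpl was the single member at an unadjusted p under 0.05, against 8.23% of all genes (3% higher, 5.22% lower), at -0.37 ± 0.16 (SE; 95% interval -0.70 to -0.03; edgeR p = 0.0328, adjusted p = 0.547). Each of the 7 CKD-Oxf mice was below the sham-Oxf median for Alpl. Leaving out sham-Oxf replicate 4 or 5 or CKD-Oxf replicate 2, 6 or 7 brought the count of members to 0, and without sham-Oxf replicate 1 or CKD-Oxf replicate 4 it was 2. Alpl itself was under 0.05 in 6 of the 12 fits that left out 1 library (log2 fold change -0.44 to -0.29, edgeR p = 0.00797 to 0.107). Of the 10 genes 9 were lower in CKD-Oxf, all but Spp1, with a median of -0.35 (0.05 over all genes).

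Averaged over gavage, the same libraries give the overall surgery effect. The 9 genes other than Spp1 were lower in CKD, with a median of -0.25, against -0.00068 over all genes, but no member and no gene of the table (0%) passed the adjusted threshold. Because several of the genes vary together between mice, these signs are not independent. At an unadjusted p under 0.05 there were 2 members, Alpl and Chad, against 10.6% of all genes. Chad was 1.02 lower on the log2 scale (log2 fold change -1.02 ± 0.36 SE, fold 0.491, 95% interval -1.77 to -0.28, edgeR p = 0.00869, adjusted p = 0.335). Its unadjusted p stayed under 0.05 in each of the 28 fits that left out 1 library, with log2 fold changes of -1.18 (without sham-Oxf replicate 1, adjusted p = 0.175) to -0.84 (without sham-Oxf replicate 2, adjusted p = 0.491). With limma voom and sample weights, Chad passed the adjusted threshold (log2 fold change -1.08, adjusted p = 0.0429). The adjusted p of Chad ranged from 0.0429 to 0.626 over 35 alternatives. With the log2 share of 7SL RNA as a covariate, its difference was -0.58 (edgeR p = 0.106), and the 7SL share was higher in each CKD group than in the matching sham group by its median. Alpl was at -0.24 ± 0.11 (SE; fold 0.848; edgeR p = 0.0389, adjusted p = 0.45), with an unadjusted p under 0.05 in 19 of the 28 fits.

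Summed over a list, valve and tendon markers were lower by median in each CKD group than in the matching sham group, but not every marker was. Their list (Scx, Tnmd, Mkx, Thbs4, Prelp, Angptl7, Cytl1, Wif1 and Hapln1) had all 9 genes in the table and summed to medians of 75.4 CPM (33.6 to 101) in sham and 46.5 CPM (33.6 to 80.9) in CKD mice with vehicle. With Oxf they were 56.1 CPM (39.2 to 81.9) and 41.9 CPM (27.3 to 56.3). Tnmd, which marks tendon, was at 0 in 14 libraries. Prelp had the highest median of the list (33.6 CPM). By mean, Thbs4, Prelp, Angptl7, Wif1 and Hapln1 were lower in CKD-vehicle than in sham-vehicle. Scx (2.48 against 2.4 CPM), Mkx (0.357 against 0.337) and Cytl1 (9.73 against 9.57) were not. With Oxf, Scx, Thbs4, Prelp, Angptl7 and Wif1 were lower by mean in CKD, and Mkx, Cytl1 and Hapln1 were not. Scx, Mkx, Cytl1 and Hapln1 each had 0 counts in 1 sham-Oxf library, which lowers their sham-Oxf means. By median, Cytl1 (4.24 against 5.56 CPM) and Hapln1 (0.373 against 0.746) were lower in CKD-Oxf than in sham-Oxf. Mkx (0.404 against 0.243) was not. From sham-vehicle to sham-Oxf the median of the marker sum was lower. Chad averaged 2.94 CPM in sham-vehicle and 2.57 CPM in sham-Oxf, or 3.21 CPM there without replicate 1. The part of valve or tendon tissue in the Chad difference was not tested. Cartilage markers, with 10 of 11 in the table, summed to only 2 to 4.80 CPM in any library, with group medians of 3.57, 2.63, 3.20 and 2.90 CPM.

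The question of the series title, the effect of the bacterium in CKD, was read from CKD-Oxf against CKD-vehicle, which shares the CKD-vehicle libraries with the first comparison. No member passed the adjusted threshold (0.033% of all genes did) or an unadjusted p under 0.05, which 13.1% of all genes did (6.89% higher, 6.2% lower). Without CKD-vehicle replicate 2 there was 1. The smallest p was that of Sox9, at -0.49 ± 0.28 (SE; 95% interval -1.07 to 0.09; edgeR p = 0.0923, adjusted p = 0.452). With the clock score as a covariate its direction turned, to 0.06 (edgeR p = 0.871). Of the members 6 were lower and 4 higher, with a median of -0.19 (0.03 over all genes). Without CKD-Oxf replicate 6 all 10 were lower, and with the 7SL share 9 were. Chad, at 1.34 ± 0.632 CPM in CKD-vehicle and 1.37 ± 0.638 CPM in CKD-Oxf (SD, n = 6 and 7), was nearly the same in both CKD groups, and the 95% interval of its log2 difference ran from -1.02 to 1.10.

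In sham-operated mice, sham-Oxf against sham-vehicle had no member past the adjusted threshold (0% of all genes) and none at an unadjusted p under 0.05, against 12.6% of all genes (6.6% higher, 5.98% lower). Mgp had the smallest p, at -0.48 ± 0.27 (SE; 95% interval -1.04 to 0.07; edgeR p = 0.0824, adjusted p = 0.453). With the clock score as a covariate its value was -0.20 (edgeR p = 0.544), and with 1 library left out it ran from -0.76 (without sham-Oxf replicate 3, edgeR p = 0.0145) to -0.31 (without sham-Oxf replicate 4, edgeR p = 0.269). Leaving out sham-Oxf replicate 3, the highest Mgp library of its group, gave 2 members at an unadjusted p under 0.05, and leaving out sham-vehicle replicate 9 gave 1. The sham-vehicle libraries are shared with the first comparison. There were 6 lower and 4 higher members, with a median of -0.19 (-0.04 over all genes). The majority turned without sham-Oxf replicate 1, to 4 lower (Comp, Fmod, Mgp and Sox9) and 6 higher, and with the 7SL share as a covariate 9 were lower.

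Averaged over surgery, Mgp was the single member at an unadjusted p under 0.05, against 23% of all genes. Its log2 fold change with Oxf was -0.42 ± 0.19 (SE; fold 0.745; edgeR p = 0.0329) and did not pass adjustment (adjusted p = 0.176), in a comparison in which 2.81% of all genes passed. The value was -0.06 (edgeR p = 0.833) with the clock score as a covariate, and without sham-Oxf replicate 1 it was -0.40 (edgeR p = 0.0587). The clock score itself differed by gavage, with means of 2.31 and 0.80 in the vehicle groups and 4.01 and 3.41 in the Oxf groups. This covariate and gavage therefore cannot be fully told apart. With any 1 library left out, the unadjusted p of Mgp was under 0.05 in 19 of 28 fits. Of the 10 genes 7 were lower and 3 higher, but without sham-Oxf replicate 1 only 4 were lower and 6 higher. With the clock score 5 were lower, and with the 7SL share 9. The interaction term, the difference between the Oxf effects in CKD and in sham mice, had no member past the adjusted threshold (0%) or an unadjusted p under 0.05, against 3.55% of all genes (1.48% higher, 2.07% lower). The smallest p was that of Alpl, at -0.26 ± 0.22 (SE; 95% interval -0.71 to 0.19; edgeR p = 0.246, adjusted p = 1).

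**Figure D3:**
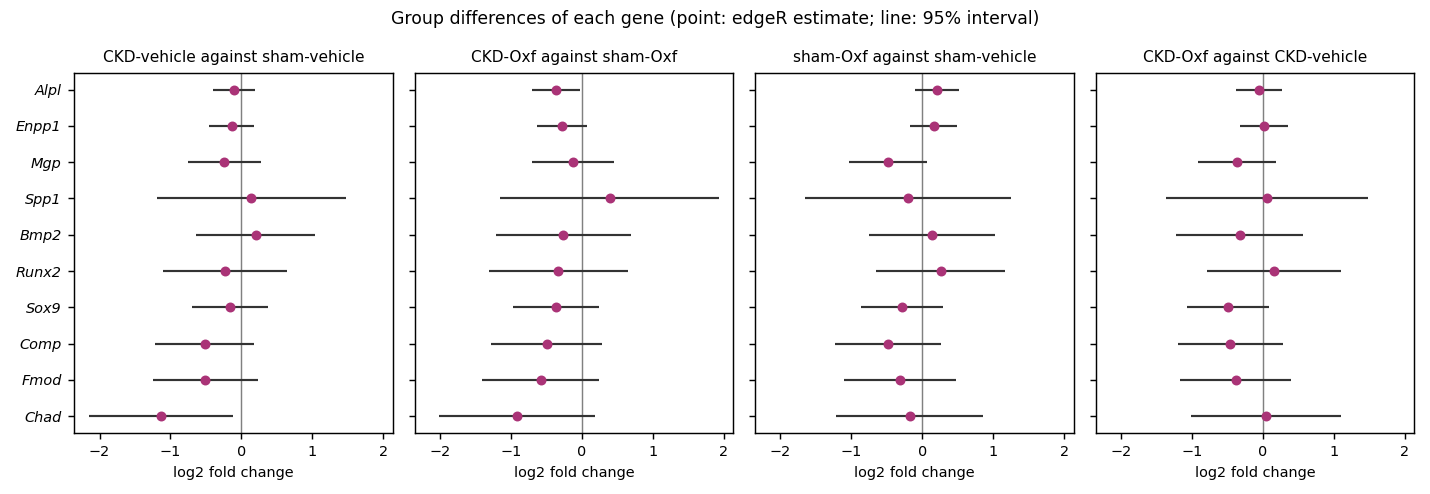
Log2 fold change of each gene (points) with its 95% interval (lines) in the 4 comparisons that change surgery or gavage alone, from the edgeR fit. Nearly all intervals include 0; Chad in CKD-vehicle against sham-vehicle and Alpl in CKD-Oxf against sham-Oxf are the exceptions at an unadjusted p.

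Several members varied together between mice of the same group. Correlations were taken over the 28 libraries after removal of the group means, for 45 pairs, with permutation within groups and Benjamini-Hochberg adjustment, and 15 pairs passed, 12 of them positive. The first set was Mgp, Fmod, Comp and Sox9, all 6 pairs of which passed. Mgp and Fmod had the closest relation (Pearson r 0.909, Spearman rho 0.897, permutation p = 1e-05 for each, the smallest the draws can give, adjusted p = 0.000112 and 0.00015). It was 0.896 without the 2 libraries farthest from the median of Mgp, and 0.909 without sham-Oxf replicate 1. Mgp and Comp had r 0.847 (rho 0.83), Comp and Fmod 0.813 (rho 0.873) and Sox9 and Comp 0.783 (rho 0.799), each with an adjusted permutation p of 0.000112 for r. Sox9 had r 0.70 with Fmod (rho 0.72, adjusted permutation p = 0.000787) and 0.674 with Mgp (rho 0.701, adjusted permutation p = 0.00121). A mouse with high Mgp, an inhibitor of calcification, thus tended to have high levels of Sox9, Comp and Fmod too.

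The second set was Runx2, Enpp1 and Chad. Runx2 and Enpp1 had r 0.681 (rho 0.686, adjusted permutation p = 0.00027), and 0.669 without sham-Oxf replicate 1. Enpp1 and Chad had r 0.681 (rho 0.646, adjusted permutation p = 0.000787) and 0.585 without that library. Runx2 and Chad had r 0.888 (rho 0.761, adjusted permutation p = 0.00115), which was 0.616 without it (adjusted permutation p = 0.0129). The 0 counts of this library weigh most on Bmp2. Bmp2 and Chad had r 0.84 with it (adjusted permutation p = 0.0119) and 0.404 without it (adjusted permutation p = 0.0598). Conversely, Bmp2 with Mgp was 0.335 with it and 0.707 without (adjusted permutation p = 0.369 and 0.000562), and Bmp2 with Comp 0.449 and 0.739 (adjusted permutation p = 0.0711 and 0.000562). Without it Bmp2 thus went with the first set, while with all libraries it had passed with Sox9 (r 0.592, adjusted permutation p = 0.000525) and Chad.

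Chad, though a cartilage matrix gene, did not pass with Mgp (r 0.163), Comp (0.294) or Fmod (0.0962), where adjusted permutation p was 0.605, 0.334 and 0.705, and passed with Sox9 (0.538, adjusted permutation p = 0.0124; 0.444 and 0.0587 without sham-Oxf replicate 1). Alpl ran the other way. It was negatively related to Mgp (r -0.577, rho -0.551, adjusted permutation p = 0.0104), to Enpp1 (-0.552, rho -0.496, adjusted permutation p = 0.0119) and to Fmod (-0.508, rho -0.518, adjusted permutation p = 0.022). Without the 2 libraries farthest from the median of Alpl, the relations to Enpp1 (-0.467, adjusted permutation p = 0.0614) and Fmod (-0.449, adjusted permutation p = 0.0954) no longer passed. Spp1 was in no passing pair. Without sham-Oxf replicate 1, 17 pairs passed, 13 of them among the 15.

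**Figure D4:**
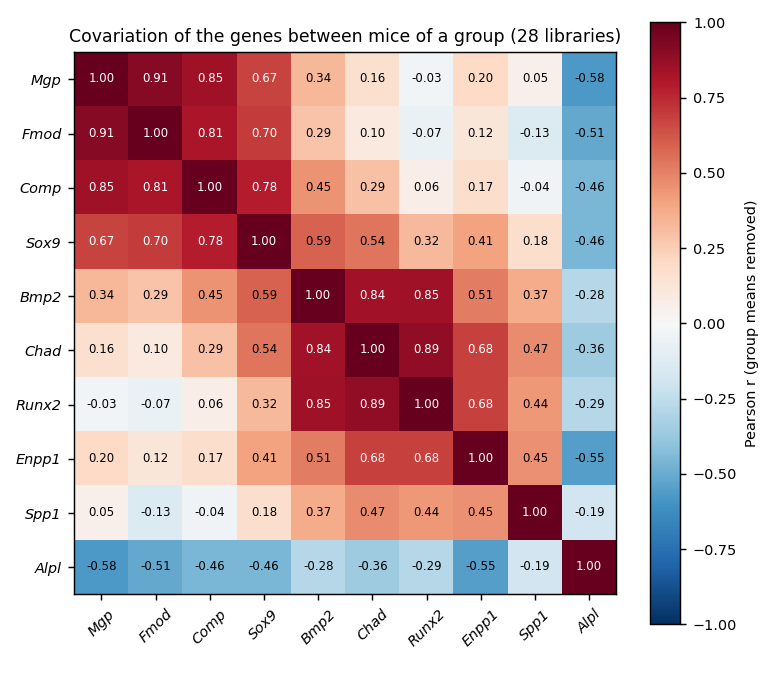
Pearson r between the log2 CPM of each pair of genes over 28 libraries, with group means removed (red positive, blue negative). Mgp, Fmod, Comp and Sox9 form 1 block and Chad, Runx2 and Enpp1 another, and Alpl is negative with every other gene. Bmp2 is positive with both blocks, but its relations to Runx2 and Enpp1 did not pass (adjusted permutation p = 0.0975 and 0.0711). Without sham-Oxf replicate 1 (not drawn), Bmp2 with Chad is 0.404 in place of 0.84 and Bmp2 with Runx2 0.138 in place of 0.847. Bmp2 with Enpp1 is then 0.233 in place of 0.511, and Runx2 with Enpp1 0.669.

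The levels were also set against 5 measures of each library in the same way, 50 relations in all, 17 of which passed (14 without sham-Oxf replicate 1). This comparison was added after the data were seen. The genes of the first set rose and fell with the fibroblast markers (Dcn, Pdgfra, Tcf21, Lum, Gsn, Col1a1 and Col1a2). The r was 0.905 for Mgp (rho 0.892), 0.855 for Fmod (rho 0.881) and 0.829 for Comp (rho 0.794), each with an adjusted permutation p of 0.000125, and 0.674 for Sox9 (rho 0.701, adjusted permutation p = 0.003). For Chad the same r was 0.00176 (rho 0.157, adjusted permutation p = 0.993). The second set fell with the 7SL share: r was -0.671 for Enpp1, -0.629 for Runx2 and -0.622 for Chad (rho -0.752, -0.76 and -0.712), with adjusted permutation p-values of 0.000312, 0.000167 and 0.000167. These 3 relations also passed without sham-Oxf replicate 1, at -0.613, -0.764 and -0.622. Bmp2 had a relation to the 7SL share as well (r -0.463, adjusted permutation p = 0.0222). It did not pass without that library (-0.383, adjusted permutation p = 0.138). The part of the 7SL share in the relations among Runx2, Enpp1 and Chad was not tested. With the valve and tendon markers, Bmp2 had the highest r of the 10 genes (0.843, rho 0.805, adjusted permutation p = 0.000125). Without sham-Oxf replicate 1 its r of 0.76 was below the 0.822 of Comp and the 0.769 of Mgp. Comp (0.714, rho 0.798, adjusted permutation p = 0.000312) and Sox9 (0.707, rho 0.703, adjusted permutation p = 0.000444) passed with them too. So did Mgp (0.606, rho 0.748, adjusted permutation p = 0.0131) and Fmod (0.491, rho 0.64, adjusted permutation p = 0.0336), and Fmod was at 0.636 without sham-Oxf replicate 1. Chad had r 0.726 with these markers (rho 0.62, adjusted permutation p = 0.0215), and 0.41 without that library (adjusted permutation p = 0.129). With smooth muscle and artery wall markers, Mgp (0.486) and Bmp2 (0.412) passed, at adjusted permutation p = 0.0469 and 0.0257. With the clock score Runx2 passed (0.335, adjusted permutation p = 0.0469). Mgp (-0.296) and Sox9 (-0.302) did not, at adjusted permutation p = 0.199 and 0.217.

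For each member the 3 other genes most like it were taken from 13899 genes that averaged 1 log2 CPM or more, by Pearson r over the 28 libraries with group means removed. This is a description, and the genes share the libraries and their depth. Since the library of sham-Oxf replicate 1 changed most of these lists, each is given without it after the list with it. Mgp was nearest to Sft2d2 (r 0.924), Igfbp4 (0.918) and Smoc1 (0.907), then to Fzd7, Srpx (0.938 each) and Golim4 (0.937). Fmod was nearest to Sft2d2 (0.916), Igfbp4 (0.909) and Igfbp5 (0.905), then to Gas1 (0.93), Igfbp4 and Cdh3 (0.929 each). Comp was nearest to Frzb (0.889), a secreted Wnt inhibitor first known from cartilage, Megf10 and Tgfbi (0.885 each), then to Sertad4 (0.90), Megf10 (0.898) and Igsf3 (0.897). Igfbp4, an IGF-binding protein, was in both lists of Fmod and Megf10 in both of Comp, while none of the 3 genes of Mgp was kept. Sox9 was nearest to Chsy1 (0.849), an enzyme of chondroitin sulfate synthesis, Sepn1 (0.842) and Lsamp (0.811), and all 3 gave way to Id2 (0.851), Antxr1 (0.844) and Sfrp2 (0.837). Alpl was nearest to Nrap (0.891), a protein of heart and skeletal muscle cells, Egflam (0.889) and Lrtm1 (0.873), then to Cyfip2 (0.891), Nrap and Egflam (0.89 each). Enpp1 was nearest to Prkcz (0.861), Tbc1d14 (0.838) and Spred3 (0.834), then to Prkcz (0.826) and Mob3b (0.82). The lists of Alpl and Enpp1 thus kept 2 and 1 of their genes. For Chad the nearest were Znrf3 (0.938), Scube3 (0.917) and Chd5 (0.916), then Znrf3 (0.814), Rusc1 (0.781) and Naaladl2 (0.756). Runx2 was nearest to Nfkbie (0.974), then to Dock10 (0.90), Pik3r5 (0.886) and RP23-163K5.1 (0.883). Bmp2 was nearest to Rtn4rl1 (0.971), then to Chsy1 (0.912), Hcn4 (0.872) and Tgfbi (0.865). Spp1 had no close partner in either list, with Ero1lb the nearest at 0.674 and AC111067.4 at 0.625.

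Other genes of these pathways were counted from lists that hold none of the 10. The first has 53 regulators of mineralization (BMP ligands, receptors and antagonists, phosphate and pyrophosphate handling, osteogenic factors and inhibitors), 41 of them tested. The second has 39 cartilage and tendon matrix genes, 31 of them tested. In 6 of the 7 comparisons no gene of either list passed the adjusted threshold. With Oxf averaged over surgery, 1 of 41 regulators and 3 of 31 matrix genes passed, all lower, against 2.81% of all genes. At an unadjusted p under 0.05, 4 regulators were higher and 9 lower, and 1 matrix gene was higher and 11 lower, where 11.5% of all genes were higher and 11.5% lower. The list medians were -0.06 for the regulators and -0.22 for the matrix genes, against 0.00 over all genes (0.00312).

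The regulator that passed was Bmpr1a, a receptor for Bmp2. Its means in sham and CKD mice were 46.7 ± 8.21 and 52.9 ± 8.94 CPM with vehicle and 36.4 ± 7.18 and 39.2 ± 8.30 CPM with Oxf (SD, n = 10, 6, 5 and 7), a log2 fold change of -0.40 ± 0.11 (SE; edgeR adjusted p = 0.0427). The matrix genes that passed, Aspn, Ogn and Lum, are small leucine-rich proteoglycans, the family to which Fmod belongs. Aspn (asporin) averaged 14.2 ± 4.96, 14.4 ± 5.72, 7.47 ± 1.5 and 8.47 ± 2.95 CPM in the same order and was at -0.84 ± 0.18 (SE; edgeR adjusted p = 0.0183). Ogn (osteoglycin) was at -0.58 ± 0.15 (edgeR adjusted p = 0.0421) and Lum (lumican), which is also in the fibroblast list, at -0.85 ± 0.23 (edgeR adjusted p = 0.0435). Fmod itself did not pass (unadjusted edgeR p = 0.21). None of these 4 genes passed with the clock score (adjusted p = 0.775, 0.761, 0.895 and 0.859 in the order named) or the 7SL share (0.215, 0.139, 0.211 and 0.19) as a covariate. Of all 24273 genes, 0 passed with the clock score and 132 with the 7SL share, against 681 in the main fit, so the loss was not particular to these 4. Over 36 alternatives Aspn passed in 34, Bmpr1a and Ogn in 15 each and Lum in 13. The clock score was higher in both Oxf groups than in either vehicle group on average, and its part in these differences was not tested beyond that covariate.

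For CKD averaged over gavage, none of the 41 regulators and 31 matrix genes passed. At an unadjusted p under 0.05, 5 matrix genes were lower and none higher, and 2 regulators were lower and none higher, with 5.45% of all genes lower and 5.17% higher. The matrix list had a median of -0.12 and the regulators 0.01. All 9 valve and tendon markers are also in the matrix list, so both describe some of the same genes.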

How the data were processed

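Total RNA of ventricular myocardium was sequenced, and the authors deposited a single table of whole-number counts per gene, not normalised. The submitters' processing notes name FastQC 0.11.7, MultiQC 1.9, STAR 2.6.1d, Subread featureCounts 1.6.3 and build mm10. The annotation release and strand setting are not given in the sources used here. All rows had a gene name and 0 columns lacked a mapped sample. Replicates were numbered within groups in record order, and each is a separate mouse by its number in the labels.

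Counts were scaled by TMM and filtered with filterByExpr (minimum count 10, by group), leaving 24273 genes, in R 4.3.3 with edgeR 4.0.16. All 28 libraries entered 1 robust quasi-likelihood fit of 4 group means, with 7 contrasts and Benjamini-Hochberg adjustment over all genes (threshold 0.05). The fit was tried on simulated counts with a single spread and no library that stands apart. That trial does not measure the power for these 10 genes. SE is the log2 fold change divided by the root of F. CPM per kb divides by the merged exon length in GENCODE M21 (GRCm38), which also gave positions. Correlations used log2 CPM (prior count 2) minus group means and 1e+05 permutations within groups (Python 3.11.15, NumPy 2.4.6). The 7SL share is that of the rows Rn7s1 and Rn7s2 together. For the clock score, log2 CPM was averaged over Dbp, Per1, Per2, Per3, Tef, Hlf, Nr1d2 and Ciart. The mean over Arntl, Npas2, Clock, Nfil3 and Cry1 was then subtracted. The score was not assigned to a time of day.

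The 10 genes, the lists and the comparisons were chosen with earlier results of these data known. All 10 genes were to be named with their levels, with a fold change for those at an unadjusted p under 0.05 or with the smallest p of a comparison. List genes were to be named where they passed, or by smallest p, at most 3 per list and comparison; only those that passed are named here. Alternatives were DESeq2 1.42.0, limma 3.58.1 voom, 2 other scalings, 2 other filters, 2 covariates, a fit of the compared groups alone and each library left out. Count depth was 19.8 to 65.4 M (mega) per library, and reads without molecular identifiers are not independent molecules. An item among the genes most like Enpp1 is not reported here.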

Additional observations from a re-analysis of the deposited data

Results flagged for a closer look

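In the groups of 5, 6, 7 and 10 mice, the gap between the extreme library and its nearest neighbour was divided by the range of the group and compared with Dixon's 95% critical value, for 10 genes in 4 groups. Of 40 comparisons 6 exceeded it, where chance gives about 2. In sham-Oxf, replicate 1 was lowest for Runx2 (ratio 0.845), Chad (0.827) and Bmp2 (0.803), above the critical value of 0.71 for 5 libraries. Each of these genes had 0 counts there (log2 CPM -4.34 by the prior count), while the next lowest library was at 1.10 for Runx2, 1.16 for Chad and 1.2 for Bmp2. That library had 15879 genes with a count.

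In CKD-Oxf, where the critical value is 0.568, replicate 5 was lowest for Sox9 (ratio 0.584, log2 CPM 1.24 against 2.10 in the next) and for Fmod (0.588, log2 CPM 0.66 against 2.70). It also held the lowest Mgp (27.7 CPM) and Comp (4.41 CPM) of its group, and it had 28800 genes with a count. Replicate 4 of CKD-Oxf was lowest for Chad (0.683, log2 CPM -2.10 against 0.08). It had 7 Chad counts, 27128 genes with a count and 20.6% of its counts on 7SL RNA, and the part of these in its low Chad level was not tested.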

How the results depend on the processing

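The count of members past the adjusted threshold was 0 in each of the 7 comparisons (edgeR) and stayed 0 with the DESeq2 Wald test and under every alternative run but 1: for CKD against sham averaged over gavage it was 1 (Chad) with limma voom and sample weights. In the comparison of CKD-Oxf with CKD-vehicle, Sox9 turned to 0.06 (0.06355) with the clock score as a covariate; the cause was not tested. Chad kept its sign in 35 alternatives (-1.18 to -0.58) and Alpl in 36 (-0.31 to -0.20) for CKD averaged over gavage, and Mgp in 36 (-0.56 to -0.06) for Oxf. Members at an unadjusted p under 0.05 for CKD averaged over gavage numbered 4 with DESeq2 and 5 with voom, against 2. The share of all genes by the same rule was 12.5% with DESeq2 and 19.5% with voom, against 10.6%. For Oxf averaged over surgery, list genes that passed numbered 3 regulators and 5 matrix genes with DESeq2, 13 and 8 with voom, and 0 and 1 without a filter, against 1 and 3. Over all genes voom called 5336 and DESeq2 2133 there, against 681. For CKD averaged over gavage they called 126 and 103, against 0. Members lower in CKD averaged over gavage numbered 9 under both other scalings, 8 with the clock score and 7 with the 7SL share. Chad had no value with at least 10 counts in every library, since sham-Oxf replicate 1 had 0 and CKD-Oxf replicate 4 had 7. Passing pairs numbered 17 with DESeq2 size factors and 25 by Spearman's rho, against 15. Spp1, at 0 to 42 counts, is the member most limited by depth. No paired analysis was possible because the labels give each mouse its own number and no number is shared between groups.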
